A study of Mus musculus
Mus spretus with 18 samples.

Results

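Heart was compared with embryonic stem cells (ESC), cortex, spleen, liver, lung and kidney in F1 hybrid mice, for the inclusion of skipped exons and for the expression of genes. The heart is represented by 2 of the 18 RNA-seq libraries of the series, chosen by the tissue named in their labels, and the 6 other tissues by 12 libraries with 2 replicates each. All 14 libraries came from crosses between the strains C57BL/6J and SPRET/EiJ, and the labels name no further allele or treatment for them. The organs were taken at 8 weeks of age from 2 female animals, the liver libraries were made from the same animals in an earlier study and are labelled C57BL/7J and C57BL/8J for that strain, and the ESC replicates are independent clones. The 4 fibroblast libraries were not used.

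Heart muscle contracts without pause, and its cells are packed with sarcomeres, with a calcium store that triggers each beat, and with mitochondria that burn mostly fatty acids. Genes that are active in many tissues are often spliced to a different form in muscle, by including or skipping short exons that add or remove a stretch of protein. RNA-binding proteins such as Rbm20, Rbm24, and the Rbfox, Mbnl, Celf and Ptbp families are known to control such exons in striated muscle.

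The labelled tissue was first checked against marker genes. All 10 cardiomyocyte markers were higher in both heart libraries than in any other library, with summed levels of 75830 and 75801 TPM, a transcript count scaled to gene length and library size, against 5.74 to 1191 elsewhere. The 4 atrial markers reached 7248 and 7351 TPM, whereas the skeletal muscle myosins Myh1, Myh2 and Myh4 lay under 1 TPM. All 7 skeletal muscle markers summed to 6.78 and 6.45 TPM in heart, where Mylpf, Tnni2 and Tnnt3 lay at 1.05 to 3.01 TPM. Markers of other cell types were also detected, with sums of 996 and 1152 TPM for fibroblasts, 487 and 486 TPM for endothelium and 3693 and 4651 TPM for red blood cells. In bulk tissue, fewer cells of a type and less RNA per cell cannot be told apart. The lung libraries held transcripts of heart muscle. Myl7, the atrial myosin light chain, was at 1826 and 1804 TPM in heart and at 598 and 455 TPM in lung, whereas the ventricular Myl2 was at 12140 and 11928 TPM in heart and at 0.0801 and 0.138 TPM in lung. The contribution of these transcripts to the lung values below was not tested. The totals of called and set apart features were therefore also computed without lung.

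The inclusion of an exon was measured as percent spliced in (PSI), which runs here from 0 for an exon that is always skipped to 1 for an exon that is always included. Junction reads over all skipped exon events summed to 84921835 and 87332952 in the heart libraries and from 46558287 to 129496306 in the others. An event was tested with 20 or more reads in both heart libraries and in both libraries of at least 3 other tissues, on the autosomes, which left 17612 events in 7108 genes with a median of 536 reads in the lower heart library. The replicates of heart differed by a median of 0.0122 in PSI. An event was called with an adjusted p under 0.05 from a weighted linear model moderated with limma and a PSI difference of at least 0.1 between heart and the mean of the other tissues. It was set apart if, in addition, both heart libraries lay beyond every other library and the heart mean lay at least 0.2 from that of the nearest tissue.

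Of the events tested, 1516 (8.61%) were called, with 704 (4.00%) higher and 812 (4.61%) lower in heart. Set apart were 215 events (1.22%), of which 121 (0.687%) were higher and 94 (0.534%) lower. Without lung, an alternative chosen after the data were seen, 657 events were called higher and 773 lower, and 123 and 100 were set apart, of which 106 and 86 were among the former. The set apart events covered 207 exons of 179 genes, 116 higher and 91 lower. In the higher group the exons rose from a median of 0.118 in the other tissues to 0.726 in heart, and in the lower group they fell from 0.878 to 0.341. For 28 of the higher exons every library outside the heart was under 0.1, and for 15 of the lower exons every such library was over 0.9.

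**Figure D1:**
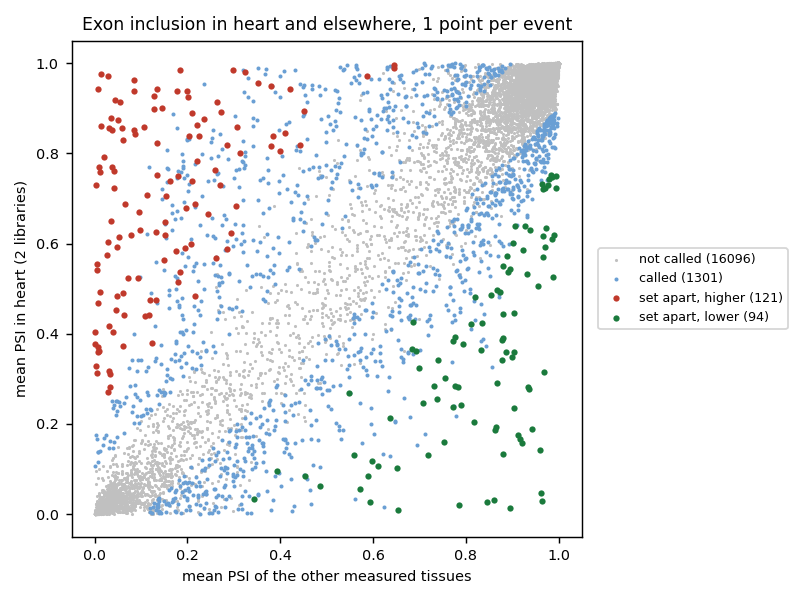
Mean PSI in heart (vertical axis) against the mean PSI of the other measured tissues (horizontal axis), 1 point for each of the 17612 events. Most events lie near the diagonal, whereas the 121 events set apart as higher (red) lie at the upper left and the 94 set apart as lower (green) at the lower right.

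The largest distance to the nearest tissue among the exons that heart included was seen in Nebl, which encodes nebulette, an actin-binding protein of the cardiac Z disc. Its exon of 93 nt (chr2:17370459-17370551, minus strand, mm10) had a PSI of 0.985 and 0.968 in heart, and of 0 to 0.0387 with a median of 0.0102 in the libraries of cortex, kidney and lung, the other tissues with enough reads. The log2 odds of inclusion differed by 10.74 ± 0.72 (SE) (adjusted p = 8.57e-10, limma). At this event nearly all junction reads of both heart libraries included the exon, and almost none of the other libraries did.

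The sodium/calcium exchanger Slc8a1, which removes calcium from the cell after each beat, carried a pair of such exons. The exon of 15 nt (chr17:81441652-81441666, minus strand) had a PSI of 0.973 and 0.914 in heart and at most 0.0278 elsewhere (adjusted p = 1.04e-09, limma). The exon of 69 nt (chr17:81437745-81437813) had 0.992 and 0.977 in heart and 0.144 to 0.254 in the other libraries measured. The groups did not overlap for either exon, and both were measured in 4 other tissues.

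Ank2 encodes ankyrin-B, which anchors ion channels and exchangers of cardiomyocytes to the cytoskeleton. Of its 10 tested exons, 4 were called higher and 3 lower in heart, and 3 of the higher ones were set apart. The exon of 92 nt (chr3:126926803-126926894) was at 0.923 and 0.913 in heart and at 0 to 0.0898 elsewhere, and the exon of 93 nt (chr3:126930561-126930653) was at 0.923 and 0.907 against 0.0156 to 0.191. The exon of 36 nt was intermediate, at 0.606 and 0.634 in heart against 0 to 0.350. The lower exons, of 24, 99 and 6198 nt, had means of 0.151, 0.0132 and 0.00410 in heart against 0.363, 0.235 and 0.142 elsewhere, and were not set apart. Cortex was the highest tissue for each, at 0.959, 0.690 and 0.438. For the exons of 24 and 99 nt, heart lay above the remaining tissues measured, kidney (0.0472 and 0.00602) and ESC (0.0825 and 0.00990).

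Pdlim5, a PDZ and LIM domain protein of the Z disc, had a pair of micro-exons. The exon of 18 nt (chr3:142304705-142304722) was at 0.881 and 0.875 in heart against 0.00142 to 0.104, and the exon of 15 nt (chr3:142306284-142306298) at 0.763 and 0.753 against 0 to 0.0457. Sorbs2, an adaptor between the membrane and actin fibers, had 3 set apart exons, of 57, 84 and 159 nt, with heart means of 0.738, 0.991 and 0.783. The other libraries measured ranged from 0.0909 to 0.333 for the exon of 159 nt and reached 0.818 for that of 84 nt. Of its other tested exons 1 was called higher and 2 lower. Svil, which encodes the actin-bundling protein supervillin, also had 3, with heart means of 0.791, 0.649 and 0.938 against at most 0.231 in any other library.

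Of the following actin-associated genes, each had 1 exon set apart as higher in heart. Ablim1 (84 nt) was at 0.772 and 0.768 in heart and at no more than 0.0240 in the libraries of all 6 other tissues. The capping protein Capzb (113 nt, chr4:139288861-139288973) was at 0.789 and 0.75 against 0.000609 to 0.101. The scaffold palladin (Palld, 51 nt) was at 0.934 and 0.922, and cortex, at a mean of 0.364, was the nearest tissue. Epb4.1l3, a link between membrane and cytoskeleton, had 0.819 and 0.868 for its exon of 66 nt against 0.0175 to 0.170. Ablim1 also had 3 exons called lower, among them one of 141 nt at a mean of 0.430 against 0.820. Cortex, at 0.214, lay below heart for that exon. Epb4.1l3 had 2 more called higher and 1 called lower. The heart libraries differed widely for the lower exon, of 192 nt, at 1 and 0.370. They also differed for the higher exon of 123 nt, at 0.705 and 1, where cortex was above the heart mean at 0.943. The higher exon of 117 nt was at 0.921 and 0.929.

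Exons of RNA regulation, cell adhesion and translation lay in the same set. Fxr1, an RNA-binding protein, included its exon of 81 nt (chr3:34064974-34065054) at 0.966 and 0.961 in heart against 0.00450 to 0.323, and its exon of 92 nt (chr3:34068161-34068252) at 0.859 and 0.818 against 0.260 to 0.535. The integrin subunit Itgb1 and the gene Naca were named after their values were seen, because both are textbook cases of a muscle isoform. The Itgb1 exon of 81 nt (chr8:128726983-128727063) was at 0.413 and 0.397 in heart and at most 0.00582 elsewhere. The very long Naca exon of 5916 nt was at 0.389 and 0.364 against 0.000139 to 0.00583. In Itgb1 and Naca heart held both forms, while the other tissues held almost only the form without the exon.

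Mitochondrial proteins contributed to both directions. The mitofusin Mfn2, which fuses outer mitochondrial membranes, had an exon of 83 nt (chr4:147902928-147903010, minus strand) at 0.973 and 0.972 in heart. The other 12 libraries ranged from 0 to 0.116 with a median of 0.00914, and lung was the highest (adjusted p = 2.82e-18, limma). The fission factor Mff had an exon of 75 nt at 0.645 and 0.593 in heart against 0.0156 to 0.223.

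On the skipped side, 3 genes of mitochondrial energy production and structure switched their main form in heart. Idh3b encodes a subunit of the isocitrate dehydrogenase of the tricarboxylic acid cycle. Its exon of 171 nt (chr2:130279556-130279726, minus strand) had a PSI of 0.0437 and 0.0476 in heart, and of 0.931 to 0.995 with a median of 0.958 in the other 12 libraries. The log2 odds differed by -9.18 ± 0.14 (SE) (adjusted p = 4.70e-22, limma), with 1823 or more reads in every library. Atp5c1 encodes the gamma subunit of the mitochondrial ATP synthase. Its exon of 37 nt (chr2:10056770-10056806) was at 0.0124 and 0.0158 in heart and at 0.656 to 0.974 elsewhere, and lung was the nearest tissue at a mean of 0.687. Immt encodes the core protein of the complex that shapes the inner membrane cristae. Its exon of 105 nt (chr6:71852763-71852867) was at 0.0292 and 0.0318 in heart and at 0.670 to 0.946 elsewhere (adjusted p = 1.29e-22, limma). The 3 set apart exons of Immt, all lower in heart, are overlapping forms of this exon with other start sites.

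**Figure D2:**
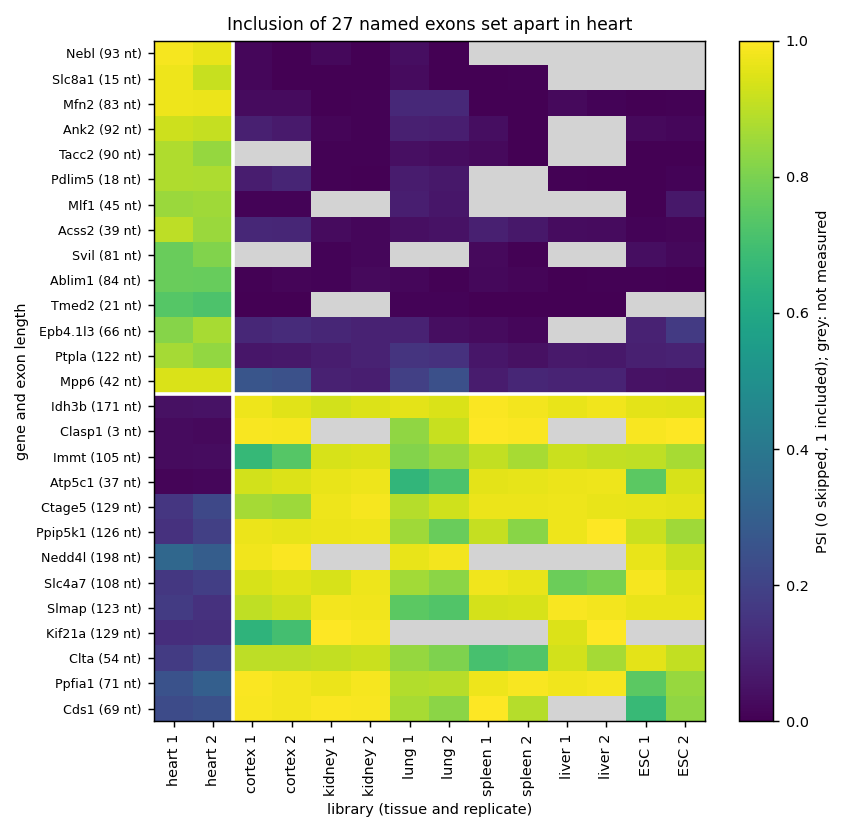
PSI of 27 named exons (rows, gene and exon length in nt) in each of the 14 libraries (columns), from 0 (dark) to 1 (yellow), with grey for tissues with fewer than 20 reads in a replicate. The 14 upper exons are light only in the 2 heart columns and the 13 lower exons are dark only there, and replicates of heart differed by at most 0.0584.

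Other exons that heart skipped lay in genes of the cytoskeleton and of membrane traffic. Clasp1, a microtubule plus end protein, had an annotated exon of only 3 nt at 0.0295 and 0.0266 in heart and at 0.834 to 1 in cortex, lung, spleen and ESC. Clta, the clathrin light chain A, had an exon of 54 nt (chr4:44030215-44030268) at 0.173 and 0.212 against 0.707 to 0.957. Its heavy chain partner Cltc moved the other way, with an exon of 21 nt (chr11:86701061-86701081) at 0.546 and 0.50 in heart against 0.0132 to 0.217. Slmap, a protein of the sarcolemma, had an exon of 123 nt at 0.173 and 0.142 against 0.730 to 0.989, and Lmo7, a LIM domain protein, an exon of 57 nt at 0.263 and 0.30 against 0.785 to 1. The ubiquitin ligase Nedd4l, known to regulate sodium channels, had an exon of 198 nt at 0.332 and 0.296 against 0.922 to 0.995 in the 3 other tissues measured. At each of these exons except that of Cltc the form without the exon was the main one in heart. Other exons of Lmo7 and Clta differed in the other direction. In Lmo7, 3 exons were called higher in heart, among them one of 282 nt at a mean of 0.883 against 0.303. Cortex was above heart there, at 0.937. Another event of that exon, with enough reads only in lung and ESC besides heart, was at a mean of 0.285 in heart. In Clta an exon of 36 nt was called higher at 0.225 against 0.112, with the difference turning to -0.106 against cortex and kidney alone.

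The remaining named exons filled out both groups. Higher in heart were exons of Tacc2 (a coiled-coil protein of the centrosome), Mlf1, Acss2 (cytosolic acetyl-CoA synthetase), Tmed2 (a cargo receptor of the early secretory pathway), Ptpla (an enzyme of very long chain fatty acid synthesis) and Mpp6 (a membrane scaffold), with heart means from 0.729 to 0.942. Lower were exons of Ctage5 (collagen export), Ppip5k1 (an inositol pyrophosphate kinase), Slc4a7 (a bicarbonate transporter), Kif21a (a kinesin), Ppfia1 (a liprin) and Cds1 (phospholipid synthesis), with heart means from 0.133 to 0.277. The exon of 21 nt in Tmed2 was at 0.738 and 0.720 in heart and at no more than 0.0109 elsewhere, with at least 1892 reads.

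Several genes changed at more than 1 exon. Of the 179 genes, 21 had more than 1 set apart exon, which in 5 of them included overlapping forms of an exon, and 5 others (Atg7, Clip1, Kif21a, Ppip5k1 and Rhot1) had exons in both directions. In Kif21a an exon of 129 nt was at a mean of 0.133 in heart, whereas an exon of 39 nt was at a mean of 0.615 in heart and at 0.00584 to 0.179 elsewhere.

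The length of the set apart exons was compared with that of all exons tested. Of the 116 higher exons, 14 (12.1%) had 30 nt or less and 33 (28.4%) had 31 to 60 nt, and of the 91 lower exons 6 (6.59%) and 12 (13.2%) did. Among all 16129 exons tested these shares were 2.45% and 11.2%. A length divisible by 3 was found in 84 (72.4%) of the higher and 56 (61.5%) of the lower exons, and in 42.8% of all exons tested. Among all called exons, 11.6% of the higher and 4.81% of the lower ones had 30 nt or less, and 69.1% of the higher and 58.5% of the lower ones were divisible by 3. These shares are descriptions with no test. All exons tested had a median PSI of 0.977 in heart and 0.974 in the other tissues, so many were nearly always included. Whether the shares in heart differ from those of exons that are alternative in other tissues was not tested.

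The next tissue in order varied. Among the 116 higher exons the nearest tissue was cortex for 51 of the 107 measured there and lung for 35 of 111, and among the 91 lower exons lung for 24 of 76, cortex for 20 of 77 and ESC for 19 of 72. Kidney was nearest for 1 of 107 higher exons and 11 of 82 lower exons. The exon at the edge of the higher group lay in Eef1d, at a distance of 0.201, and the first one outside in Madd, at 0.194. On the lower side the edge lay between Plekha6 at 0.201 and Atr at 0.197. The replicates of heart differed by more than 0.1 in PSI for 28 of the 207 exons, most of all in Fancm with 0.471.

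Genes with known isoforms in heart muscle were examined as a list of 65. Of these, 54 had at least 1 tested exon, 42 had a called exon and 22 a set apart exon. Over their 246 tested exons, 69 were called higher and 35 lower, and 27 and 6 were set apart, against 4.00% and 4.61% called and 0.687% and 0.534% set apart over all events. An exon of the list counted as called if any of its events was. Of all 16129 exons tested, 657 had an event called higher and 769 one called lower, and 116 and 91 were set apart. The list was chosen with earlier results of these data known, so its counts are no independent test. Many of the called exons were shared with another tissue. The Mef2d exon of 21 nt, in a transcription factor of muscle and neurons, was at 0.754 and 0.780 in heart and reached 0.968 in cortex, and the Mef2a exon of 24 nt was at 0.758 and 0.745 against up to 0.893 in cortex. The exon of 42 nt of Camk2d, the main cardiac calcium/calmodulin kinase, was at 0.719 and 0.715 in heart and reached 0.869 in cortex. In another event of that exon, with enough reads only in cortex and lung besides heart, the order differed. Heart was at 0.911 and 0.881 there, above the means of cortex (0.812) and lung (0.786). The exon of 9 nt in Tnnt2, cardiac troponin T, was at 0.849 and 0.830 in heart, and its highest values elsewhere, up to 0.592, were in lung (adjusted p = 0.0217, limma). It was no longer called without spleen replicate 1.

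No exon was tested in 11 genes of the list. In Ttn, Ldb3, Trdn, Nrap and Cacna1c, among others, exons had enough reads in heart but in too few other tissues, whereas Tpm2 and Insr had no such exon. Of the 25168 autosomal events with enough reads in both heart libraries, 2504 were measured in no other tissue and 5052 in 1 or 2. These events held 7033 exons, of which 501 were alternative in heart, with a mean PSI of 0.1 to 0.9. The Ldb3 exon of 186 nt, in a Z disc protein, was at 0.810 and 0.856 with 6997 and 6599 reads, the Myom1 exon of 294 nt at 0.128 and 0.114, and the Tnnt2 exon of 12 nt at 0.224 and 0.216. The Myom1 exon was at 0.677 in lung and 0.512 in spleen, the only other tissues with enough reads. The Tnnt2 exon was at 0.197 in lung, near heart, and at 0.0952 in spleen. For the Ldb3 exon only lung had enough reads, at 0.639. The Ttn exon of 138 nt was at 0.720 and 0.733. For the exons with no other tissue a difference was not detectable at this depth.

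Gene expression was compared on the log2(TPM + 0.1) scale, with limma over 21772 genes that reached 1 TPM in both libraries of at least 1 tissue. A gene was called with an adjusted p under 0.05 and a log2 difference of at least 1 from the mean of the 6 other tissues, and set apart if both heart libraries also lay beyond the other 12 and the heart mean lay at least 1 from the nearest tissue. The pseudocount understates the change of low genes, and for genes near 0 elsewhere the size of the difference depends on it. In heart 10703 genes (49.2%) were called, 2535 (11.6%) higher and 8168 (37.5%) lower, and 1055 (4.85%) were set apart, 629 (2.89%) higher and 426 (1.96%) lower. Without lung, 2815 genes were called higher and 7935 lower, and 777 and 488 were set apart, which included 629 and 424 of the former.

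The split between higher and lower genes depended on the scale. The median log2 difference over all genes tested was -0.71, and the 20 most abundant genes held 31.7% and 32.4% of the TPM in heart against 11.8% to 37.2% in the other libraries. Genes encoded in the mitochondrial genome held 19.1% and 19.4%, against 2.49% to 17.3%. Over genes expressed throughout, the centre of heart lay at -0.45 (log2) relative to the other tissues. Rescaling each library to that median raised heart accordingly and left a median difference of -0.30 over all genes tested. On that scale 3635 genes were called higher and 5781 lower, or 38.6% higher against 23.7% as deposited, and 932 and 255 were set apart. Values below are as deposited. Counts for the gene lists below stand beside 11.6% of all genes called higher, 37.5% called lower and 2.89% set apart as higher.

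Sarcomere genes were among those with the largest differences. All 10 genes of the thick filament and M band were called higher and 9 were set apart, with a median log2 difference of 9.44, and all 9 thin filament genes were called and 8 set apart, with a median of 9.95. Myl2, the ventricular myosin regulatory light chain (gene on chromosome 5), was at 12140 and 11928 TPM in heart and at 0 to 0.666 TPM with a median of 0.148 elsewhere, a log2 difference of 15.54 ± 0.26 (SE) (adjusted p = 2.14e-10, limma). The light chain Myl3 was at 8982 and 8503 TPM against at most 5.07 TPM, and the myosin-binding protein Mybpc3 at 3058 and 3040 TPM against at most 13.5 TPM. For Myh6, the main adult myosin heavy chain of mouse heart, levels of 12122 and 11969 TPM compared with 167 and 127 TPM in lung. Myom3 was called but not set apart, at 2.97 and 3.21 TPM, below ESC at 5.71 and 5.40 TPM, and was not called with a pseudocount of 1.

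All 17 genes of the Z disc and costamere were set apart, with a median of 8.38. Fhl2 was at 1874 and 1934 TPM, desmin (Des) at 1320 and 1213 TPM against up to 175 TPM in lung, and the chaperone Cryab at 4102 and 3839 TPM against up to 833 TPM in kidney. The intercalated disc, which joins the cells, was shared more widely. Of its 9 genes 8 were called and 4 set apart. Desmoplakin (Dsp) was at 298 and 316 TPM, whereas the gap junction gene Gja1 (417 and 373 TPM) lay within a log2 distance of 0.94 from cortex, and Tjp1 was not called (38.9 and 44.1 TPM, adjusted p = 0.375, limma).

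Genes of calcium handling and excitation were raised, and some were also high in cortex. All 13 calcium handling genes were called higher and 10 were set apart (median 6.86). The sarcoplasmic calcium pump Atp2a2 was at 7200 and 7538 TPM against up to 684 TPM in cortex, and its inhibitor Pln at 3738 and 3974 TPM against up to 21.2 TPM in lung. All 17 cardiac ion channel genes were called, and 7 were set apart (median 4.39). Some channels were higher in cortex than in heart, for example Kcnj3 (51.8 and 54.2 TPM in heart, 89.2 and 101 TPM in cortex) and the pacemaker channel gene Hcn2 (18.2 and 16.9 TPM against 121 and 130 TPM). Against cortex and kidney alone, Scn4b was lower in heart by a log2 difference of 2.89 and Kcnd3 by 1.11, the opposite of the difference from all 6 tissues.

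Of the 17 cardiac transcription factors, 16 were called higher and 6 set apart (median 3.64). Nkx2-5, which specifies cardiac fate, was at 112 and 94.0 TPM, and its highest level elsewhere was in spleen at 18.8 and 13.4 TPM. Gata4 was at 133 and 115 TPM and the ventricular factor Irx4 at 56.1 and 46.4 TPM. Tbx5 was at 43.5 and 37.5 TPM, below lung at 54.3 and 57.2 TPM. Hand1 was not called, at 0.0115 and 0.0356 TPM. Of the 12 natriuretic peptides, receptors and related genes 9 were called higher, 1 lower and 5 set apart (median 3.21). Nppa was at 4696 and 4799 TPM, the next level being 37.9 and 10.5 TPM in lung, and Nppb at 560 and 491 TPM. After the rescaling none of them was called lower.

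**Figure D3:**
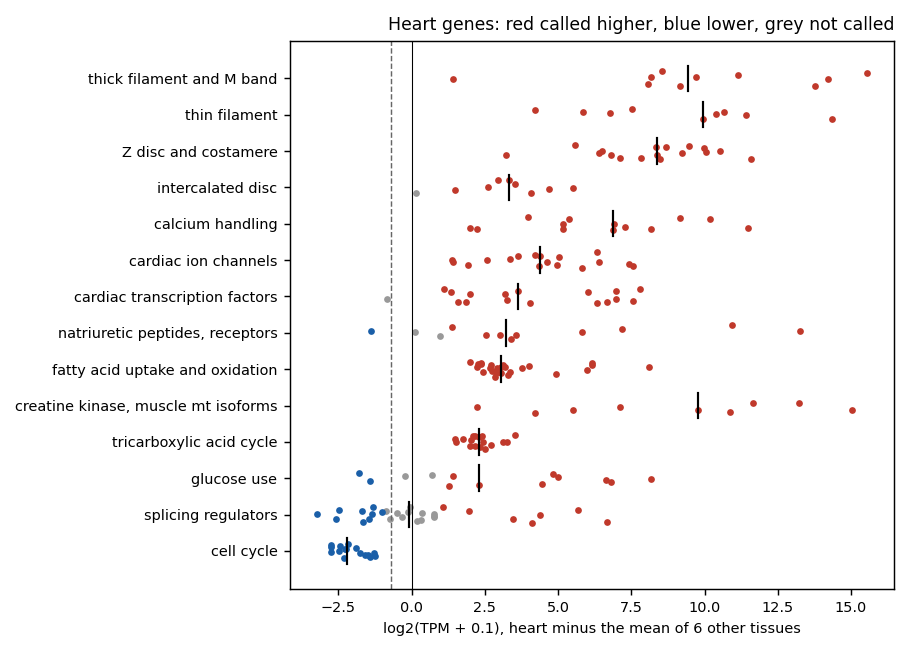
Difference in log2(TPM + 0.1) between heart and the mean of the 6 other tissues (horizontal axis) for each tested member of 14 gene groups (rows), with a black bar at the median of a group and a dashed line at the median of all genes (-0.71). Red points were called higher, blue lower and grey not called, and the sarcomere, calcium and creatine kinase groups lie farthest to the right.

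Genes of fuel use were raised by smaller amounts. All 25 genes of fatty acid uptake and oxidation were called higher and 15 were set apart (median 3.06). Fabp3, the muscle fatty acid carrier, was at 6518 and 6778 TPM, and Cpt1b, which admits fatty acids to mitochondria, at 324 and 318 TPM against up to 22.2 TPM in kidney. Acsl1 was higher in liver (332 and 394 TPM) than in heart (291 and 294 TPM). The heart libraries themselves differed in Pdk4, an inhibitor of glucose oxidation, with 130 and 324 TPM, and in Ucp3 with 47.1 and 78.7 TPM, and both stayed above all other libraries.

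All 17 genes of the tricarboxylic acid cycle were called higher and 11 set apart, with a smaller median of 2.28. Idh3b, whose exon of 171 nt was skipped in heart, was at 593 and 583 TPM against up to 250 TPM in kidney. All 9 genes of the creatine kinase shuttle and of muscle isoforms of mitochondrial proteins were called and 8 set apart (median 9.78). Myoglobin (Mb) was at 24680 and 23779 TPM against up to 131 TPM in lung, the mitochondrial creatine kinase Ckmt2 at 3613 and 3544 TPM against up to 27.7 TPM, and the cytochrome oxidase subunit Cox8b at 2682 and 2762 TPM against up to 23.4 TPM in kidney.

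Of 13 genes of glucose use 9 were called higher, 2 lower and 6 set apart (median 2.30). Among the higher genes were the insulin-dependent transporter Slc2a4 at 364 and 345 TPM and the muscle enolase Eno3 at 1905 and 1881 TPM, and also the widely expressed hexokinase Hk1, at 74.8 and 69.4 TPM, which lay below cortex and turned to a log2 difference of -0.39 against cortex and kidney alone. The general transporter Slc2a1 was lower, at 15.1 and 15.4 TPM against 8.19 to 400 TPM with a median of 59.9, and both heart libraries were above liver. Eno1 was called lower as deposited but not after the rescaling. Ldhb reached 3806 and 3632 TPM, while Ldha was not called, at 511 and 489 TPM.

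The 12 genes named by distance to the nearest tissue also included Adprhl1 and Lrrc10, both known for their role in heart muscle. Adprhl1 was at 462 and 457 TPM against at most 2.44 TPM, and Lrrc10 at 200.1 and 216 TPM against at most 1.24 TPM. Asb10 was at 92.0 and 90.9 TPM. The noncoding gene Gm12167 was at 18.9 and 20.2 TPM and was listed at 0 in 9 of the other 12 libraries. At TPM of 10 or more in heart 513 genes were set apart, 72 of them at 1000 or more.

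Of the 426 genes set apart by a low level (1305 without liver, where 655 were set apart as higher), 122 had a TPM of 10 or more in every other tissue. Nipsnap1, a mitochondrial protein, was at 1.34 and 1.52 TPM in heart and at 11.4 to 217 TPM with a median of 85.0 elsewhere, a log2 difference of -5.31 ± 0.10 (SE) (adjusted p = 3.11e-10, limma). Ass1, which makes argininosuccinate for arginine synthesis, was at 3.49 and 4.09 TPM against 26.7 to 2722 TPM. Sqle, an enzyme of cholesterol synthesis, was at 2.52 and 2.35 TPM against 14.5 to 66.1 TPM elsewhere. Sh3bgrl2, Arl6ip1, the scaffold Slc9a3r1 and the predicted genes Gm26377 and Gm23436 were also among the 10 named by distance, with log2 differences from -3.70 to -3.15. For all 10 the heart libraries lay below every other library.

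Cell cycle genes were low, with all 16 called lower and none set apart (median -2.21), where 37.5% of all genes were called lower with a median of -0.71 over all genes. The proliferation marker Mki67 was at 0.682 and 1.04 TPM in heart, against 68.2 and 78.2 TPM in ESC and 35.9 and 103 TPM in spleen, and at 0.347 and 0.754 TPM in liver. After the rescaling 13 were called lower, and against cortex and kidney alone 1 of the 10 genes tested was called. The remaining genes did not reach 1 TPM in both libraries of heart, cortex or kidney.

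Of 28 genes known to control splicing 7 were called higher and 9 lower, where 11.6% and 37.5% of all genes were called, and 2 and 1 were set apart, with a median of -0.10 (10 higher, 6 lower and a median of 0.37 after the rescaling). Rbm20 was at 159 and 139 TPM in heart and at 0.199 to 64.4 TPM with a median of 3.08 elsewhere, and ESC was the highest, with 64.4 and 21.2 TPM. Rbm24 was at 145 and 143 TPM against at most 16.1 TPM in cortex (adjusted p = 4.10e-09, limma). Rbm38, at 133 and 134 TPM, lay close to spleen at 130 and 110 TPM, and Rbfox1, at 27.7 and 27.9 TPM, well below cortex at 244 and 245 TPM. Ptbp3 was set apart on the low side, at 4.93 and 6.09 TPM against 15.7 to 73.9 TPM. Ptbp1 was at 31.4 and 32.2 TPM, and cortex, at 25.0 and 22.4 TPM, was lower. Esrp1, an epithelial regulator, was listed at 0 in both heart libraries. Mbnl1 and Celf1 differed by less than 1 on the log2 scale and were not called, at 36.2 and 41.7 TPM and at 36.5 and 37.4 TPM.

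**Figure D4:**
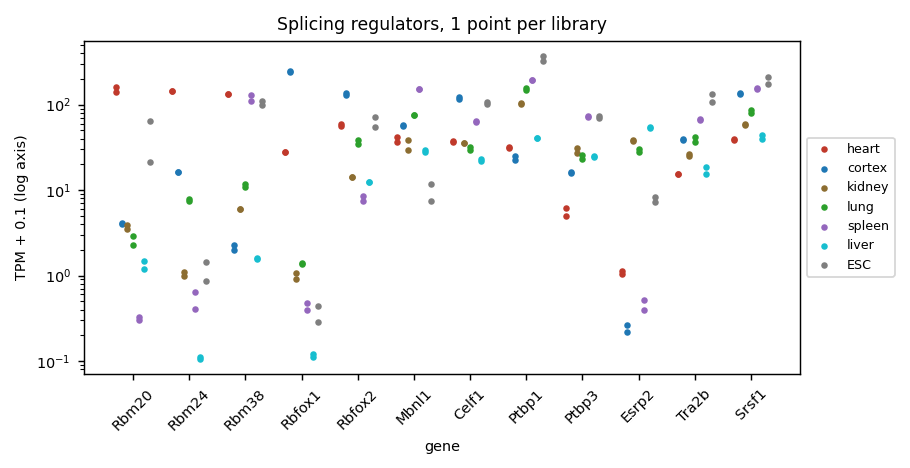
Level of 12 splicing regulators (horizontal axis) in TPM plus 0.1 on a log axis, 1 point for each of the 14 libraries, colored by tissue. The heart libraries (red) are the highest for Rbm20 and Rbm24 and the lowest for Ptbp3, and in the middle for Mbnl1 and Celf1.

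Exon and expression differences coincided in some genes. Of the 179 genes with a set apart exon, 55 (30.7%) were called higher in expression and 20 (11.2%) set apart as higher, against 13.7% and 3.0% of the 7106 genes with a tested event. Called lower were 27 (15.1%) against 21.2%. The median level in heart was 23.8 TPM in the 179 genes and 17.3 TPM in the 7106. The contribution of read depth to these shares was not tested. Nebl was called higher but not set apart, at 33.9 and 39.2 TPM in heart and 21.7 and 23.0 TPM in cortex. Its exon of 93 nt had a mean PSI of 0.0102 in cortex.

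Heart was finally set against each tissue alone, with the same heart libraries in all 6 comparisons. Genes called in either direction ranged from 38.0% against kidney to 65.0% against ESC, and exon events from 8.27% against lung to 13.2% against cortex. Cortex, at 58.8% of genes, was second for genes and first for exons. Exon events that differed by at least 0.5 in PSI, called or not, numbered 444 of 16481 against cortex and 190 of 16863 against lung. On the deposited scale heart had more genes called higher than lower against liver alone (8451 and 2597), and more lower than higher against the other 5 tissues. The centre of genes expressed throughout lay at -1.09 and -1.15 (log2) in liver relative to the mean of all libraries. It lay at -0.442 and -0.410 in heart and at -0.0118 to 0.559 in the remaining libraries. These splits were not recomputed after the rescaling.

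**Figure D5:**
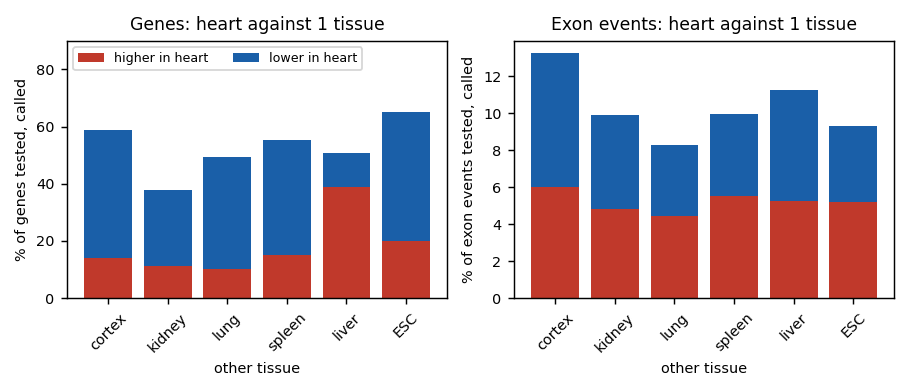
Percentage of genes (left) and exon events (right) called between heart and each other tissue (horizontal axis), divided into higher (red) and lower (blue) in heart. Kidney has the fewest genes (38.0%) and lung the fewest exon events (8.27%), and on the deposited scale only liver has more genes higher than lower in heart.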

How the data were processed

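RNA-seq of 14 libraries was used. Per the labels and methods, the authors trimmed longer reads to the length of the shorter ones, aligned them with HISAT2 2.0.1 to mm10 and a SPRET/EiJ genome, and counted junction reads with rMATS on an Ensembl annotation. The deposited junction counts are not normalized and hold both replicates in a list, taken in the order given. The effective form lengths are a deposited score of rMATS. The authors made the deposited TPM with strand-specific featureCounts. Reads of heart, cortex and kidney were longer before trimming. Other tables deposited by the authors hold allelic reads, fibroblasts and the authors' own test results, and were not used.

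PSI was computed from counts divided by form lengths. Exons were fitted as the empirical logit (0.5 added to both counts) with binomial weights and 1 mean per tissue, variances were moderated with squeezeVar of limma 3.58.1 (R 4.3.3) along read depth with a dispersion of at least 1, and heart was contrasted with the mean of the other measured tissues. Genes were fitted with limma on log2(TPM + 0.1). p-values were adjusted by Benjamini-Hochberg over all features tested. With 2 replicates and 1 mean per tissue, p-values set the difference against the spread between replicates of a tissue. The spread between tissues does not enter them. Named are the 14 higher and 14 lower exons, and the 12 higher (heart TPM of 10 or more) and 10 lower genes (TPM of 10 or more in every other tissue), with the largest distance to the nearest tissue, and members of gene lists. Some of these are not reported here. Members and lists were chosen with earlier results of these data known. Of 38924 genes, 29761 matched a symbol in the RefSeq table of GRCm38.p6, used for chromosomes only. Both fits were tested on simulated data in which 200 genes or 200 exon events were changed in heart. That setting does not show how the gene fit behaves where 49.2% of genes are called, as here. Alternatives (pseudocount, filters, scaling, read minimum, exon model, tissues or replicates left out, replicate block) are listed with their effect in the closing section.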

Additional observations from a re-analysis of the deposited data

Results flagged for a closer look

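Events on the X chromosome stood outside the comparison, which covered autosomes, and they also held exons set apart in heart. Of 469 X-linked events tested with the same model, 56 (11.9%) were called and 6 (1.28%), 1 exon each, were set apart, against 8.61% and 1.22% of the autosomal events. Mtmr1, a myotubularin phosphatase related to the autosomal Mtmr3, had an exon of 27 nt at 0.861 and 0.859 in heart and at 0 to 0.0929 elsewhere, and the Mtmr3 exon of the same length was at 0.611 and 0.597 against 0.00352 to 0.0628. Las1l had an exon of 51 nt at 0.865 and 0.862 against 0.00826 to 0.179. Phka1, the regulatory subunit of muscle phosphorylase kinase, had an exon of 177 nt at 0.210 and 0.271 in heart against 0.781 to 1. The others were lower in heart and lay in Cd99l2, F8 and 6720401G13Rik. Groups of 2 libraries were not examined for outlying samples.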

How the results depend on the processing

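The counts of called genes and exon events stayed within 1.5 times their reported value under every alternative tried except where given here. Against cortex and kidney only, 1230 genes were set apart as higher and 3540 as lower, and 186 and 152 exon events. Genes set apart as lower numbered 189 with a pseudocount of 1, 255 with median scaling and 1305 without liver. Leaving out 1 library at a time gave 2457 to 2595 genes called higher, 7415 to 8344 called lower, 619 to 648 set apart as higher and 412 to 504 as lower, and for exon events 615 to 787, 667 to 943, 111 to 129 and 90 to 122. The causes were not tested, except that fewer tissues leave fewer libraries to exceed.

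Of 7200 values recomputed for 203 genes and 116 exons, 7055 kept their direction and call, 132 lost the call and 13 changed direction. Against cortex and kidney only, the log2 difference became -2.89 for Scn4b, -1.11 for Kcnd3, -0.57 for Mef2c, -0.56 for Esrrg, -0.39 for Hk1, 0.20 for Mcm2 and 0.62 for Mcm3, and the PSI difference became -0.106 for Clta (36 nt), 0.00486 for Ktn1 (84 nt), -0.00437 for Mff (159 nt), -0.0640 for Rtn4 (57 nt) and 0.0363 for Slmap (90 nt). Without heart replicate 2 it became 0.0870, and without heart replicate 1 -0.543, for Epb4.1l3 (192 nt), whose heart libraries were at 1 and 0.370. The organs came from the same 2 animals, but the labels do not say that a replicate number marks an animal. The correlation of replicate differences between tissues ran from -0.0375 to 0.179 for genes, over 0.1 in 4 of 21 tissue pairs, and from -0.0807 to 0.0632 for exon events, over 0.1 in 0, so no pairing was used in the reported fits. With a replicate block, 2540 genes were called higher and 8181 lower, and 715 and 828 exon events. With 2 libraries a tissue and 20 reads an event as the minimum, small PSI differences could not be resolved.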
